A study of Mus musculus with 19 samples.

Results

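The hepatic lipogenesis genes are 10 genes of fatty acid synthesis, its control or related lipid metabolism, taken by symbol from the 31053 genes counted in mouse liver: *Srebf1*, *Acly*, *Me1*, *Acaca*, *Acacb*, *Fasn*, *Elovl6*, *Scd1*, *Thrsp* and *Pnpla3*. All 10 were in the count table, and 9 had enough counts to be tested. *Pnpla3* did not. Livers of male C57BL6J mice, which were 6 to 8 weeks old when they entered the study, formed 3 groups. Vehicle-treated mice received PBS (n = 5), and no vector is named for them. AAV-GFP-injected mice (n = 7) received thioacetamide (TAA), a hepatotoxin that causes liver fibrosis, in rising doses over 12 weeks, together with AAV8 TBG eGFP. AAV-miR-34b/c-injected mice (n = 7) received the same TAA course with AAV8 TBG miR34b/c, a pair of vectors for the microRNAs miR-34b and miR-34c. TBG is a hepatocyte-specific promoter, so both vectors were directed to hepatocytes. Vectors were given after 10 weeks of TAA, and livers were taken 4 weeks later. TAA and vector set AAV-GFP-injected mice apart from vehicle-treated mice together, and their effects cannot be told apart in these groups. The comparison of the vectors was made with TAA in both groups.

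Lipogenesis begins when ATP citrate lyase splits citrate that has left the mitochondrion into acetyl-CoA. Acetyl-CoA carboxylase makes malonyl-CoA from it, fatty acid synthase joins these units into palmitate with NADPH, and an elongase and a desaturase turn palmitate into stearate and oleate. In liver the genes of these enzymes are switched on together after feeding, by the insulin-responsive transcription factor SREBP-1c and the glucose-responsive factor ChREBP, and their levels also follow the time of day.

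The values are counts of reads at the 3′ ends of transcripts, with 2214073 to 5208405 counts per library, given here as CPM, which are counts scaled to a common library size, after TMM normalization. Levels are compared between groups and not between genes. A gene is called changed at an edgeR adjusted p under 0.05. Within groups, 6 pairs of libraries differed from each other by a coefficient of variation of 0.0812 to 0.171, against 0.215 to 0.480 for the other 46 pairs: vehicle 1 with 4 and 3 with 5, AAV-GFP 1 with 2, and AAV-miR-34b/c 1 with 2, 3 with 4 and 5 with 7. These pairs still differed by more than counting error, and the labels give each library as a separate biological replicate, so all 19 libraries were used. With each pair summed into 1 sample, there were 3 samples of vehicle, 6 of AAV-GFP and 4 of AAV-miR-34b/c livers, and the calls of named genes lost in that fit are given beside the results. A clock score, the average of 11 clock output genes' log2 CPM, also differed between libraries, from 4.16 to 5.08 in vehicle, 2.44 to 4.33 in AAV-GFP and 2.13 to 4.73 in AAV-miR-34b/c libraries. The labels give no hour of collection or feeding state. A fit with this clock score as a covariate is therefore also given where a named gene lost its call in it, and the part of the clock difference in the results was not tested.

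Livers of AAV-GFP-injected mice had more *Fasn* and *Acaca* mRNA than livers of vehicle-treated mice, 1.81-fold and 1.80-fold, while *Acly*, *Scd1*, *Elovl6* and *Acacb* had fold changes of 0.972, 0.985, 0.964 and 0.936 and were not called. These were 2 of 9 tested members, both higher, where 12.7% of all tested genes were called, 7.54% higher and 5.19% lower. AAV-miR-34b/c-injected mice had 1.71-fold more *Elovl6* mRNA than AAV-GFP-injected mice, and this was 1 of 9 tested members, where 3.36% of all tested genes were called, 1.95% higher and 1.42% lower. Against vehicle, AAV-miR-34b/c livers had 2.61-fold *Fasn*, 2.99-fold *Acaca* and 1.66-fold *Elovl6* levels, or 3 of 9 members, all higher, where 21.9% of all genes were called, 12.2% higher and 9.75% lower. The median log2 fold change of the 9 members was -0.021 for AAV-GFP against vehicle, where that of all tested genes was -0.0090. Between the vectors it was 0.50 (all genes -0.0075), and in AAV-miR-34b/c against vehicle livers it was 0.66 (all genes 0.016). The 3 comparisons share libraries, so their values are given side by side and are not independent of each other. Between the vectors, 7 of the 9 members were higher and 2 lower in AAV-miR-34b/c livers, with 4 at an unadjusted edgeR p under 0.05. In whole liver, fewer hepatocytes and less RNA per hepatocyte cannot be told apart.

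**Figure D1:**
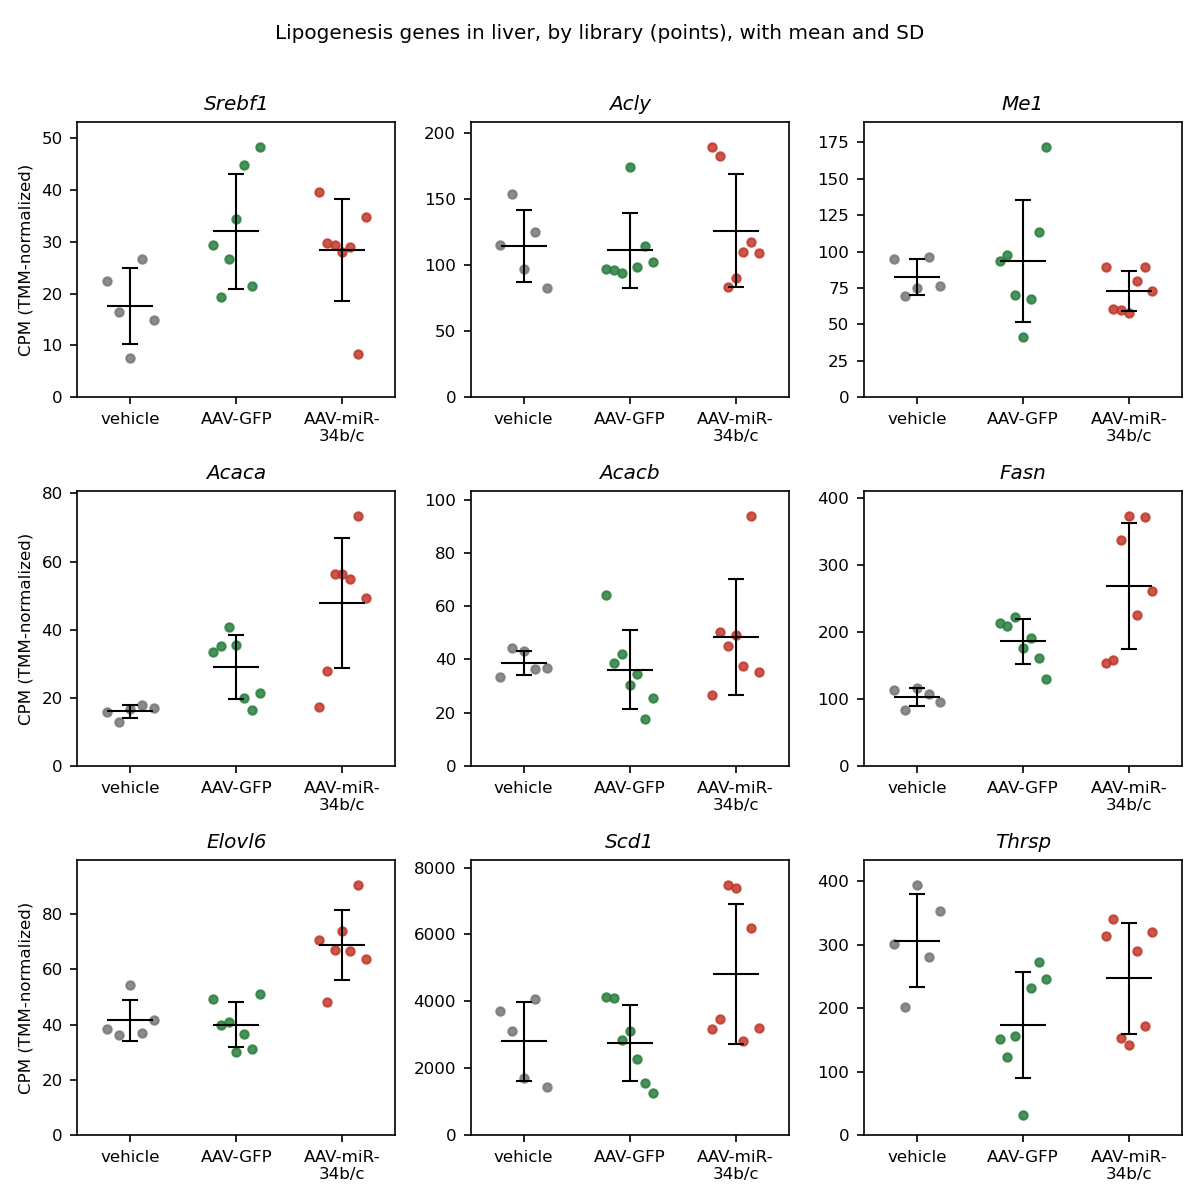
Level of each of the 9 tested lipogenesis genes in CPM (vertical axis, linear from 0, TMM-normalized) in every library of the 3 groups; points are libraries, the horizontal line is the mean and the bars are the SD. *Fasn* was above every vehicle library in all 14 libraries of TAA-treated mice, and *Elovl6* was above every AAV-GFP library in 6 of 7 AAV-miR-34b/c libraries.

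**Figure D2:**
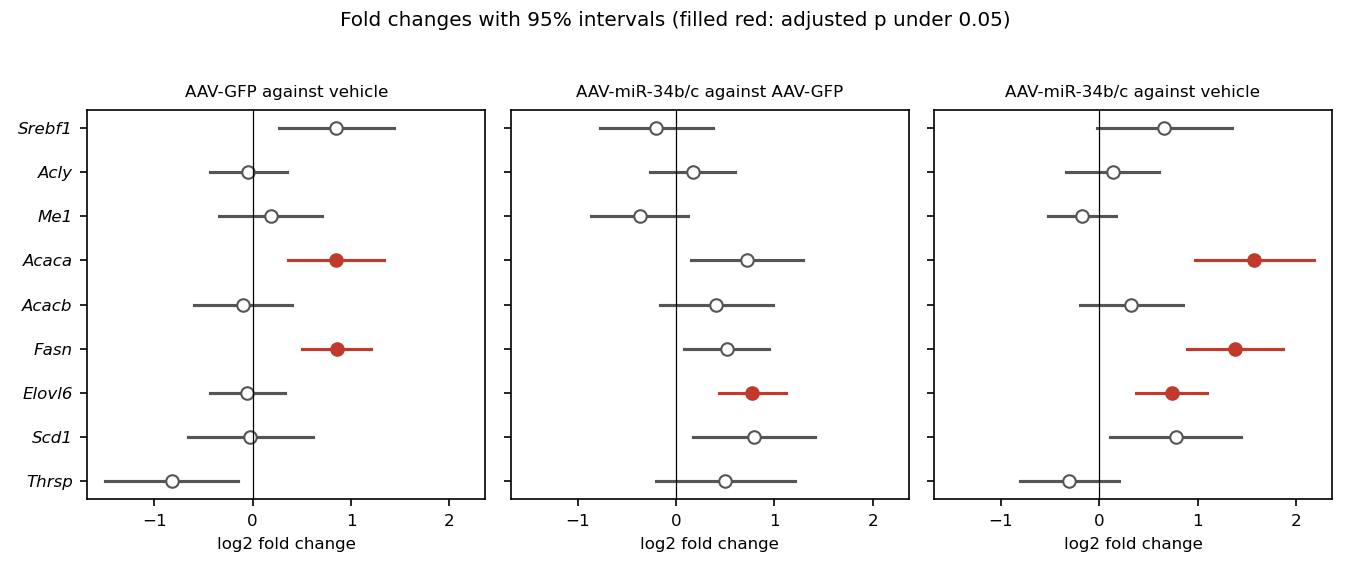
Log2 fold change (horizontal axis) of each tested lipogenesis gene in the 3 comparisons, with 95% confidence intervals from the edgeR fit; filled red points passed an adjusted p of 0.05. *Fasn* and *Acaca* lay at 0.86 and 0.85 for AAV-GFP against vehicle, and *Elovl6* at 0.78 for AAV-miR-34b/c against AAV-GFP.

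*Srebf1* (chr11:60199089-60222581, minus strand, GRCm38) encodes SREBP-1, the transcription factor of the lipogenic program. Vehicle libraries 1 to 5 had 22.4, 16.5, 7.54, 26.6 and 14.9 CPM. AAV-GFP libraries ran from 19.4 over a median of 29.4 to 48.3 CPM, and AAV-miR-34b/c libraries from 8.31 over 29.3 to 39.6 CPM. In all, 5 AAV-GFP libraries were above the highest vehicle library, and AAV-miR-34b/c library 6 stood apart below the other 6 of its group. The log2 fold change was 0.85 (SE 0.281, edgeR adjusted p = 0.051) for AAV-GFP against vehicle, just outside the threshold, and it passed under 7 of 10 alternative settings (adjusted p from 0.0124 to 0.144). For AAV-miR-34b/c it was -0.20 against AAV-GFP (95% interval -0.77 to 0.38) and 0.66 against vehicle (adjusted p = 0.15, edgeR), or 0.83 against vehicle without AAV-miR-34b/c library 6 (adjusted p = 0.0305). The end of *Srebf1* shares 109 bases with *Rai1* on the opposite strand, and how the counting treated strand is not given in the sources used here. *Rai1* had 436 counts in all libraries against 1639 of *Srebf1*, with log2 fold changes of -0.26, -0.048 and -0.30 in the 3 comparisons and no call.

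The supply genes gave no call. *Acly* (chr11:100476353-100528000, minus strand), which encodes ATP citrate lyase, had 115, 154, 96.6, 125 and 82.8 CPM in vehicle libraries 1 to 5. The AAV-GFP group ran from 94.2 over a median of 98.4 to 174 CPM, and AAV-miR-34b/c libraries from 83.2 over a median of 110 to 189 CPM. The groups overlapped, and the high end of the AAV-miR-34b/c group came from libraries 1 and 2, at 189 and 183 CPM. The 95% interval of the log2 fold change was -0.44 to 0.35 for AAV-GFP against vehicle and -0.26 to 0.60 for AAV-miR-34b/c against AAV-GFP. *Me1* (chr9:86581371-86695953, minus strand) encodes malic enzyme 1, a cytosolic source of NADPH, and had 69.2 to 96.4 CPM in the vehicle libraries. It ran from 41.5 over a median of 93.7 to 172 CPM in AAV-GFP libraries and from 58.0 over 72.9 to 89.6 CPM in AAV-miR-34b/c libraries. The AAV-GFP libraries spread on both sides of the vehicle range, with an SD of 41.8 CPM against 12.5 in vehicle and 13.8 in AAV-miR-34b/c. Between the vectors the log2 fold change was -0.37 (95% interval -0.87 to 0.13, edgeR adjusted p = 0.505).

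*Acaca* (chr11:84129672-84401651, plus strand) encodes acetyl-CoA carboxylase 1, the cytosolic enzyme whose malonyl-CoA is used for synthesis. Vehicle libraries 1 to 5 lay close together at 15.9, 12.8, 16.8, 17.9 and 17.0 CPM. Libraries of the AAV-GFP group ran from 16.6 over a median of 33.3 to 40.7 CPM, and AAV-miR-34b/c libraries from 17.4 over 55.0 to 73.4 CPM. In each TAA-treated group 6 of 7 libraries were above the highest vehicle library. AAV-miR-34b/c libraries 1 and 2, a pair that resembled each other, were the lowest of their group at 17.4 and 27.8 CPM, and the other 5 were at 49.2 or more. *Acaca* rose by 0.85 on the log2 scale in AAV-GFP livers (SE 0.235, edgeR adjusted p = 0.0229) and by 1.58 in AAV-miR-34b/c livers against vehicle (SE 0.287, adjusted p = 0.00168). Between the vectors the log2 fold change was 0.72 (SE 0.273, unadjusted p = 0.0162, edgeR adjusted p = 0.179), with 5 of 7 AAV-miR-34b/c libraries above the highest AAV-GFP library. The call for AAV-GFP against vehicle was lost with pairs summed (adjusted p = 0.139), with the clock score (0.209) and without vehicle library 1, vehicle library 2 or AAV-GFP library 3 (0.0528, 0.0516 and 0.0525), while the call for AAV-miR-34b/c against vehicle held with pairs summed (0.0337) and with the clock score (0.0129).

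*Acacb* (chr5:114146535-114250761, plus strand) encodes acetyl-CoA carboxylase 2, at the outer mitochondrial membrane, whose malonyl-CoA restrains fatty acid entry for oxidation. The vehicle libraries had 33.5, 44.1, 43.0, 36.3 and 36.8 CPM, AAV-GFP libraries 17.6 to 64.3 with a median of 34.6, and AAV-miR-34b/c libraries 26.6 to 93.8 with a median of 45.1 CPM. All 3 groups overlapped, and the highest value was that of AAV-miR-34b/c library 6. Its log2 fold changes were -0.095 (95% interval -0.59 to 0.40) for AAV-GFP against vehicle and 0.41 (-0.16 to 0.99) for AAV-miR-34b/c against AAV-GFP.

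*Fasn* (chr11:120805846-120824547, minus strand) encodes fatty acid synthase, the multifunctional enzyme that builds palmitate. Its start-site region is shown because it is the member whose levels separated TAA-treated from vehicle-treated mice most fully. Every match to the NF-Y box (CCAAT, or ATTGG on the other strand) is in capitals (RefSeq, GRCm38.p6, chr11:120824498-120824797, minus strand, 250 bases before to 50 after the start):
Fasn: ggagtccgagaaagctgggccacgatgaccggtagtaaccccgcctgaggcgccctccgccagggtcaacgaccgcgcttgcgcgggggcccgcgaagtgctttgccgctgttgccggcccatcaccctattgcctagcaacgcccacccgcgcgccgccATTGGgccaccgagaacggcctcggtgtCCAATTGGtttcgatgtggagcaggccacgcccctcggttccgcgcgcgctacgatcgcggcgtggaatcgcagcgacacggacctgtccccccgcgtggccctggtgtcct

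The region held 3 NF-Y boxes, 90, 62 and 59 bases before the start, of which the last 2 overlap. A sterol regulatory element (TCACNCCAC) or an E-box (CACGTG) was found in none of the 9 members' regions for which regions were at hand (*Scd1* was not). Among 32851 mouse regions of the same length, searched on both strands, 37.4% held an NF-Y box, 1.24% the sterol regulatory element and 7.15% the E-box. An NF-Y box was in 8 of the members' 12 regions, which belong to 7 of 9 members. *Acaca* and *Elovl6*, the other called members, held none of the 3 motifs in the windows at hand. The *Acaca* window (chr11:84195188-84195487) and the *Acacb* window (chr5:114165268-114165567) lie inside the genes. The first bases of these 2 genes at the positions given here were therefore not searched.

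Vehicle libraries 1 to 5 had 113, 83.7, 116, 108 and 94.9 CPM of *Fasn*. AAV-GFP libraries ran from 129 over a median of 192 to 223 CPM, and AAV-miR-34b/c libraries from 154 over 261 to 373 CPM. All 14 libraries of TAA-treated mice were above the highest vehicle library. Groups without overlap were found for 4.77% of all tested genes in AAV-GFP against vehicle and 7.78% in AAV-miR-34b/c against vehicle, and *Fasn* was the 1 member of 9 in each. *Fasn* rose by 0.86 on the log2 scale in AAV-GFP livers (SE 0.167, edgeR adjusted p = 0.00307, two-sided exact permutation p = 0.00126, the smallest these group sizes allow) and by 1.38 in AAV-miR-34b/c livers (SE 0.231, edgeR adjusted p = 0.00104). Between the vectors the log2 fold change was 0.52 (95% interval 0.083 to 0.95, edgeR adjusted p = 0.211), and AAV-miR-34b/c libraries 1 and 2, at 154 and 158 CPM, lay inside the AAV-GFP range while the other 5 lay above it. With pairs summed the calls against vehicle held (adjusted p = 0.0462 and 0.0284), and with the clock score the AAV-GFP difference was 0.83 (adjusted p = 0.0552) and the AAV-miR-34b/c difference 1.27 (adjusted p = 0.0148).

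*Elovl6* (chr3:129532355-129638495, plus strand) encodes the elongase that extends palmitate to stearate, and it was the member called between the vectors. The vehicle libraries had 38.3, 36.2, 54.5, 37.1 and 41.6 CPM. AAV-GFP libraries ran from 30.0 over a median of 39.8 to 51.2 CPM, and AAV-miR-34b/c libraries from 48.1 over 67.1 to 90.6 CPM. The vehicle and AAV-GFP ranges overlapped, and 6 of 7 AAV-miR-34b/c libraries were above all of them. The exception was AAV-miR-34b/c library 2, at 48.1 CPM. *Elovl6* rose by 0.78 on the log2 scale in AAV-miR-34b/c against AAV-GFP livers (SE 0.163, 95% interval 0.43 to 1.12, edgeR adjusted p = 0.0106, two-sided exact permutation p = 0.00175) and by 0.73 against vehicle (SE 0.171, edgeR adjusted p = 0.00734). For AAV-GFP against vehicle the log2 fold change was -0.053 (95% interval -0.43 to 0.33). The call against vehicle was lost with pairs summed (adjusted p = 0.0671) and with the clock score (0.0649). The call between the vectors held in all 14 fits that left out 1 library (adjusted p from 0.00533 to 0.0266) and with the clock score (0.0189), and was lost in 3 of 10 alternative settings, among them pairs summed (0.0564, log2 fold change 0.87) and scaling by library size alone (0.0559, 0.58). *Elovl6* overlaps *Gm35986* on the opposite strand, which fell by 1.08 in AAV-GFP and by 1.68 in AAV-miR-34b/c livers against vehicle (edgeR adjusted p = 0.0366 and 0.00333), from a mean of 13.6 CPM.

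*Scd1* (chr19:44394455-44407879, minus strand) encodes stearoyl-CoA desaturase 1, which makes oleate and palmitoleate. The vehicle libraries had 3717, 3099.6, 1713, 4062 and 1439.5 CPM. AAV-GFP libraries ran from 1251 over a median of 2849 to 4130.4 CPM, and AAV-miR-34b/c libraries from 2825 over 3483 to 7481 CPM. AAV-miR-34b/c libraries 3, 4 and 6, at 7481, 7387 and 6179 CPM, were above every other library, and libraries 1, 2, 5 and 7 of that group lay within the vehicle and AAV-GFP ranges. The log2 fold change between the vectors was 0.79 (95% interval 0.17 to 1.41, unadjusted p = 0.0147, edgeR adjusted p = 0.172), of the same size as that of *Elovl6* with a larger error (SE 0.295 against 0.163). It was -0.021 for AAV-GFP against vehicle (95% interval -0.65 to 0.61) and 0.78 in AAV-miR-34b/c against vehicle livers (edgeR adjusted p = 0.0847). *Scd1* was not called between the vectors in any of the 24 alternative fits, with adjusted p from 0.0843 to 0.367.

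*Thrsp* (chr7:97412938-97417730, minus strand) encodes the thyroid hormone responsive protein Spot 14, a small protein that accompanies lipogenesis. The vehicle libraries had 302, 201, 394, 281 and 354 CPM. AAV-GFP libraries ran from 31.7 over a median of 156 to 272 CPM, and AAV-miR-34b/c libraries from 142 over 290 to 340 CPM. In AAV-GFP livers 4 of 7 libraries were below the lowest vehicle library. AAV-miR-34b/c libraries 3, 4 and 6, which were highest in *Scd1*, were at 142 to 172 CPM, and the other 4 libraries of that group were at 290 to 340 CPM. The log2 fold change was -0.82 for AAV-GFP against vehicle (SE 0.324, unadjusted p = 0.0195, edgeR adjusted p = 0.0957), 0.50 for AAV-miR-34b/c against AAV-GFP (95% interval -0.20 to 1.21) and -0.30 in AAV-miR-34b/c against vehicle livers (95% interval -0.81 to 0.20). *Thrsp* was the member with the largest negative value in AAV-GFP livers, where *Fasn* and *Acaca* had positive ones.

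*Pnpla3* (chr15:84167837-84187236, plus strand) encodes a lipid droplet lipase of the patatin family. It had 9 counts in all 19 libraries, 1 in vehicle library 4, 2 in AAV-GFP library 1, and 1, 1 and 4 in AAV-miR-34b/c libraries 3, 4 and 7, and differences were not detectable at this depth.

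Across libraries the members did not follow 1 common pattern. After each gene's log2 CPM was scaled to a mean of 0 and an SD of 1 over the 19 libraries, the root mean square distance of a member from the members' mean ran from 0.670 for *Elovl6* and 0.723 for *Fasn* to 1.05 for *Me1* and *Acly*. AAV-miR-34b/c library 6 was the highest of its group for *Acaca*, *Acacb*, *Elovl6* and *Me1* and the lowest for *Srebf1*. Vehicle library 2 was the lowest of its group for 5 members. Apart from the members themselves, the 5 nearest to the members' mean by this distance among 9928 genes ranked were *Grb2* (0.639), *Ttc7* (0.654), *Ppm1l* (0.668), *Ssbp4* (0.669) and *Mvk* (0.670). *Mvk*, which encodes mevalonate kinase of cholesterol synthesis, had mean levels of 24.6 CPM in vehicle, 29.8 in AAV-GFP and 41.6 in AAV-miR-34b/c livers, and *Grb2*, which encodes an adaptor of receptor tyrosine kinases, had 33.5, 43.9 and 57.9 CPM.

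**Figure D3:**
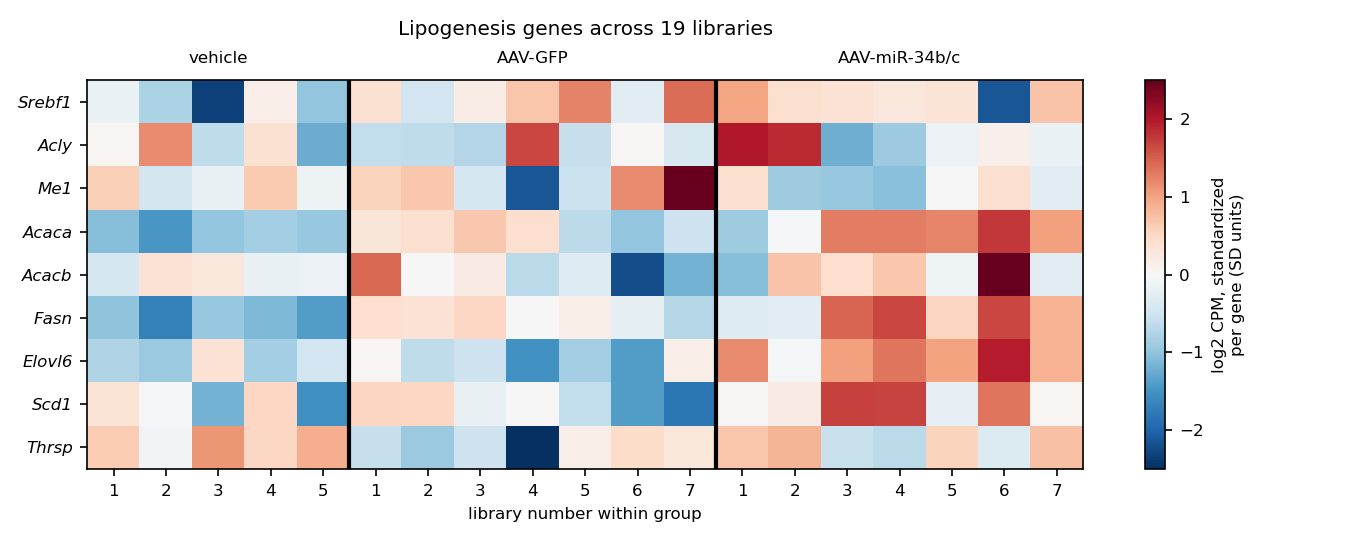
Log2 CPM of each tested lipogenesis gene (rows) in each of the 19 libraries (columns, numbered within groups), scaled per gene to SD units over all libraries; red is above and blue below the gene's mean. *Fasn* and *Acaca* are blue in all 5 vehicle libraries, and AAV-miR-34b/c library 6 is red for *Acacb* and *Elovl6* and blue for *Srebf1*.

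MiR-34b and miR-34c act on mRNAs through matches of their seed, bases 2 to 8, in 3′ UTRs. The mature miR-34b-5p sequence (RefSeq, GRCm38.p6, chr9:51103610-51103632, minus strand) is shown with the seed in capitals, followed by the matching sites (CACTGCC in capitals) found in the longest annotated 3′ UTR of each member:
mmu-miR-34b-5p: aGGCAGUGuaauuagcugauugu
Fasn site: tgcacgtgagcgagCACTGCCttcg
Acacb site 1: gtggataattctgcCACTGCCtctc
Acacb site 2: agagactttcccagCACTGCCaggc
Scd1 site: caagactacctaccCACTGCCatga

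The sites were found in 3 of the 10 members, and 14.3% of 21037 mouse genes with an annotated 3′ UTR held this match. *Fasn*, *Acacb* and *Scd1*, the members with a site, had log2 fold changes of 0.52, 0.41 and 0.79 between the vectors, all positive and none called, while the called member *Elovl6* had no match in 5005 bases. A match is a description of the sequence, and binding was not measured. The libraries hold polyadenylated 3′ ends, so the levels of mature miR-34b and miR-34c were not measured either.

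The other genes of the pathway were described by lists. Among 18 regulators of lipogenesis, AAV-GFP against vehicle called 1 of 17 tested higher and 1 lower. *Insig2*, which encodes an endoplasmic reticulum anchor that retains SREBPs, rose by 1.02 (edgeR adjusted p = 0.000989) from a mean of 100.4 to 204 CPM, and *Mlx*, the partner of ChREBP, fell by 0.81 (edgeR adjusted p = 0.0254). Between the vectors 0 of 16 tested regulators were called by edgeR or DESeq2, with 2 at an unadjusted edgeR p under 0.05. Against vehicle, AAV-miR-34b/c livers had 4 of 17 higher and 2 lower, among them *Insig2* (1.43), the E-box factor gene *Usf2* (0.87) and the AMP-activated kinase subunit gene *Prkaa2* (-1.04). These 3 calls held with pairs summed and with the clock score. In AAV-GFP against vehicle livers the *Insig2* call was lost with the clock score and the *Mlx* call in both fits. *Mlxipl*, which encodes ChREBP, had means of 32.6 ± 10.7 (SD, n = 5), 49.4 ± 17.8 (n = 7) and 55.2 ± 29.5 CPM (n = 7), and *Nr1h3*, which encodes the oxysterol receptor LXRα, had 119.7 ± 23.2, 86.8 ± 22.8 and 104 ± 21.8 CPM, and neither was called in any of the 3 comparisons.

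Among genes that feed carbon and NADPH into synthesis, *Slc25a1*, the mitochondrial citrate carrier, rose by 0.74 in AAV-GFP against vehicle livers (edgeR adjusted p = 0.00756) and *Pgd*, of the pentose phosphate pathway, by 0.71 (0.0404). Between the vectors 0 of 10 were called by edgeR, 1 by DESeq2, and 2 had an unadjusted edgeR p under 0.05. Against vehicle, *Pgd* rose in AAV-miR-34b/c livers by 0.92 (edgeR adjusted p = 0.00734). With pairs summed, *Slc25a1* and *Pgd* were not called in AAV-GFP livers and *Pgd* was not called in AAV-miR-34b/c livers. *Pgd* was not called in either group with the clock score.

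Among 9 genes of elongation, desaturation and activation of fatty acids, AAV-GFP livers had 3 called higher than vehicle. The elongase gene *Elovl1* rose by 0.96 and the acyl-CoA synthetase gene *Acsl1* by 0.65 (edgeR adjusted p = 0.00463 and 0.025). The other, *Scd2*, had 2.25 ± 1.13 CPM in vehicle, or 2 to 12 counts per vehicle library against 11 to 107 per AAV-GFP library. It passed the filter on low counts through the AAV-GFP group, where it was high, so its call is not read. *Scd2* was not tested for AAV-miR-34b/c against vehicle. Between the vectors, 2 synthetase genes were called in opposite directions. *Acsl3* rose by 0.72 (edgeR adjusted p = 0.00393), from 38.9 to 54.0 CPM in AAV-GFP libraries to 62.2 to 89.1 CPM in AAV-miR-34b/c libraries with no overlap. Groups without overlap were found for 1.38% of all tested genes between the vectors. *Acsl1* fell by 0.90 (edgeR adjusted p = 0.0145), from a mean of 558 ± 131 to 302 ± 89.9 CPM (n = 7 each). With pairs summed the adjusted p of *Acsl3* and *Acsl1* was 0.0796 and 0.198, and with the clock score both calls held. Against vehicle, *Elovl1*, *Acsl3* and *Fads1* rose in AAV-miR-34b/c livers by 1.40, 0.94 and 0.74. Calls against vehicle lost with pairs summed were those of *Acsl1* in AAV-GFP and of *Acsl3* and *Fads1* in AAV-miR-34b/c livers. With the clock score that of *Elovl1* in AAV-GFP livers was lost.

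Triglyceride synthesis and export genes had 1 of 9 tested members higher in AAV-GFP livers, *Agpat3* (0.94, edgeR adjusted p = 0.00256), 0 of 9 called between the vectors by edgeR or DESeq2 (1 at an unadjusted edgeR p under 0.05), and 2 of 9 higher in AAV-miR-34b/c against vehicle livers, *Agpat3* (0.90) and *Agpat2* (0.91), both acyltransferases of phosphatidic acid synthesis. With pairs summed both calls in AAV-miR-34b/c livers were lost, and with the clock score those of *Agpat3* in AAV-GFP and *Agpat2* in AAV-miR-34b/c livers. Lipid droplet and fatty acid uptake genes had 3 of 8 higher in AAV-GFP livers. *Cd36*, a fatty acid transporter, rose by 1.60 (edgeR adjusted p = 1.73e-05) from 14.3 to 21.4 CPM in vehicle to 39.2 to 62.5 CPM in AAV-GFP libraries, *G0s2*, an inhibitor of triglyceride lipolysis, by 1.23 and *Cideb*, a lipid droplet and lipoprotein factor, by 0.80. The *Cd36* call held with pairs summed and with the clock score, the *Cideb* call was lost with pairs summed and the *G0s2* call in both fits. In AAV-miR-34b/c against vehicle livers 2 of 7 were higher, *Cd36* (0.94, edgeR adjusted p = 0.0265) and *Cideb* (0.76, edgeR adjusted p = 0.00181), and both calls were lost with pairs summed, that of *Cd36* also with the clock score. Between the vectors 0 of 7 were called by edgeR and 1 by DESeq2, with 2 at an unadjusted edgeR p under 0.05. *G0s2* had a log2 fold change of -1.35 there (edgeR adjusted p = 0.0566). *Cd36* was called lower between the vectors with the clock score. *Cidec*, a lipid droplet gene with too few counts to be tested and named here after its values were seen, was at 1.75 to 4.74 CPM in AAV-GFP libraries, at most 1.33 in vehicle and at most 0.608 in AAV-miR-34b/c libraries. It entered the fits with pairs summed only through the AAV-GFP group, where it was high, so its calls there are not read.

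**Figure D4:**
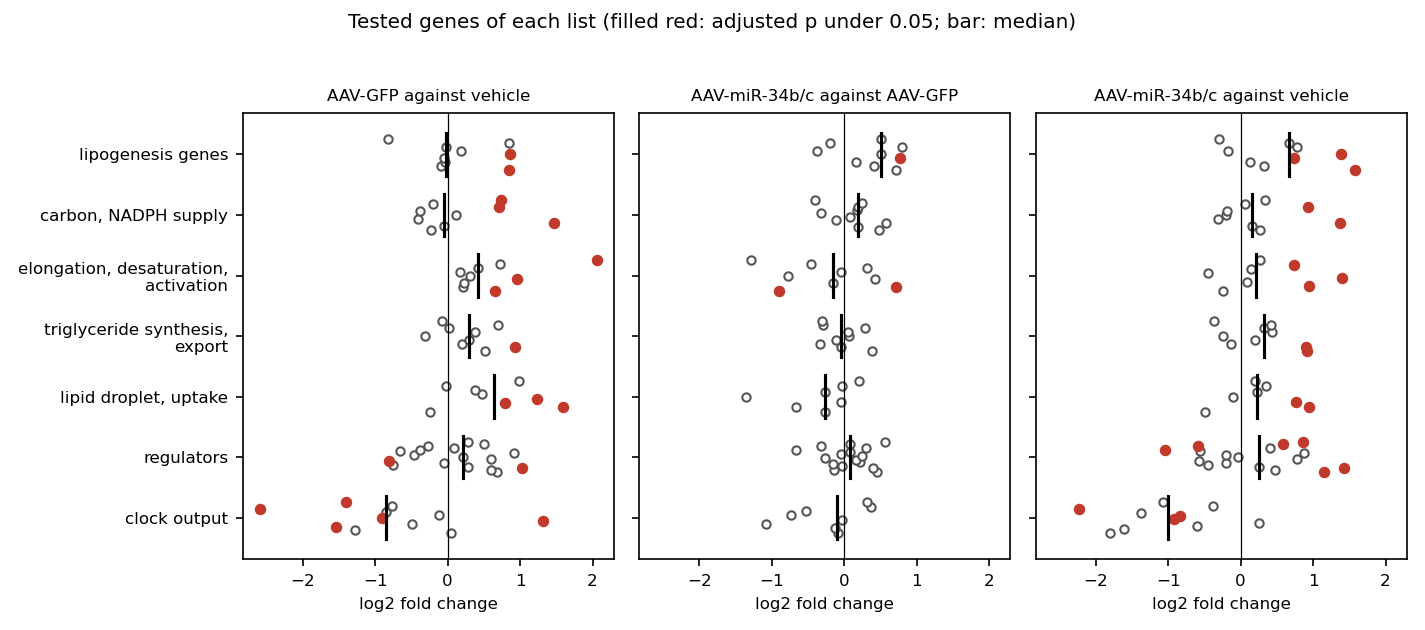
Log2 fold change (horizontal axis) of each tested gene of the lipogenesis list and of 6 other lists in the 3 comparisons; each point is a gene, filled red where the edgeR adjusted p was under 0.05, and the bar is the list's median. The lipogenesis genes had medians of -0.021, 0.50 and 0.66, and the clock output genes -0.85, -0.099 and -1.0.

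Genes of the fasted state and of the clock were read in the same way. Among 8 tested fasting-induced genes, *Irs2*, an insulin receptor substrate, and *Igfbp1*, an insulin-repressed binding protein, rose by 2.27 and 2.20 in AAV-GFP against vehicle livers and by 2.16 and 2.0 in AAV-miR-34b/c livers (edgeR adjusted p = 0.00442, 0.00964, 0.00627 and 0.0419), while with the clock score none of these 4 calls held. The *Igfbp1* value was then 1.49 in AAV-GFP and -0.61 in AAV-miR-34b/c livers, and its calls were also lost with pairs summed, where those of *Irs2* held. Between the vectors *G6pc*, which encodes the catalytic subunit of glucose-6-phosphatase, fell by 1.18 (edgeR adjusted p = 0.000279), from 671 to 1369 CPM in AAV-GFP to 351 to 466 CPM in AAV-miR-34b/c libraries without overlap. Such a lack of overlap was found for 1.38% of all tested genes in this comparison. The *G6pc* call held with pairs summed and with the clock score. Of 11 clock output genes, 4 were called lower and 1 higher in AAV-GFP against vehicle livers, among them *Usp2* (fell by 1.40) and *Nr1d1* (rose by 1.31). In AAV-miR-34b/c against vehicle livers 3 of 10 were called lower, among them *Nr1d2* and *Per1* (log2 fold changes -0.92 and -0.84). *Per3*, which is in both counts, had 19 to 72 counts per vehicle library, 1 to 20 per AAV-GFP and 0 to 26 per AAV-miR-34b/c library. It passed the filter on low counts through the vehicle group, where it was high, so its calls are not read. With pairs summed, none of the other named clock genes was called. With the clock score, which is computed from these genes, *Nr1d1* was called higher than vehicle in AAV-GFP and in AAV-miR-34b/c livers. In AAV-miR-34b/c livers it was not called without the score. No other named clock gene was called with the score. Between the vectors 0 of 8 tested clock genes were called by edgeR or DESeq2, with 2 at an unadjusted edgeR p under 0.05. Within the AAV-miR-34b/c group, libraries 5 and 7 had clock scores of 4.65 and 4.73 and the other 5 libraries scores of 2.94 or less, and libraries 5 and 7 had 225 and 261 CPM of *Fasn* and 66.8 and 63.8 CPM of *Elovl6*. They lay inside the range of the other 5 for each tested member except *Scd1*, which in library 5 was at 2825 CPM, below the lowest of the other 5 at 3172 CPM.

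Cell type markers were read for the same libraries. The summed level of 10 hepatocyte markers ran from 79484 to 102941 CPM in vehicle, 81060 to 92952 in AAV-GFP and 83382 to 133004 in AAV-miR-34b/c libraries. Of these markers *Hnf4a* rose in AAV-GFP against vehicle livers, from a mean of 115 to 209 CPM, and *Fgb*, which encodes a fibrinogen chain, rose between the vectors, from 10709 to 27539 CPM. Against vehicle, *Hnf4a*, *Fgb* and *Trf* rose and *Cps1* fell in AAV-miR-34b/c livers. With pairs summed, the *Fgb* call between the vectors and the *Hnf4a* call in AAV-miR-34b/c against vehicle livers held and the other 4 were lost, and with the clock score the *Fgb* and *Trf* calls against vehicle were lost. Adipose tissue also expresses lipogenic genes, and of 8 adipocyte markers *Plin1*, *Lep* and *Adig* had no count in any library, *Adipoq* reached at most 2.62 CPM, and the summed level was 18.4 to 51.3 CPM over all groups. Of 10 stellate cell and fibroblast markers, 4 of 9 tested rose in AAV-GFP against vehicle livers and 2 of 8 fell in AAV-miR-34b/c against AAV-GFP livers, with summed levels of 370 to 562 CPM in vehicle, 417 to 532 in AAV-GFP and 264 to 492 in AAV-miR-34b/c libraries. Most of each sum was *Dcn* (means of 368, 316 and 260 CPM), and the mean log2 CPM of the list, in which each gene counts equally, was 3.32 ± 0.354 (SD, n = 5), 4.14 ± 0.307 (n = 7) and 3.54 ± 0.218 (n = 7). Of 8 macrophage markers, 4 fell in AAV-GFP and 2 in AAV-miR-34b/c against vehicle livers, and *Cd5l* rose between the vectors from a mean of 96.2 to 177 CPM, with summed levels of 341 to 679, 263 to 451 and 399 to 569 CPM. With pairs summed, 1 stellate cell marker and 1 macrophage marker were called in AAV-GFP against vehicle livers, the macrophage calls in AAV-miR-34b/c against vehicle livers and the *Cd5l* call between the vectors were lost, and with the clock score 1 stellate cell marker was called in AAV-GFP livers. Of 6 endothelial cell markers, *Lyve1* rose between the vectors from a mean of 22.3 to 46.8 CPM and against vehicle, where *Cdh5* fell, and these 3 calls held in both fits. Of 6 cholangiocyte markers, *Spp1* rose in AAV-GFP and *Sox9* in AAV-miR-34b/c against vehicle livers, and both calls were lost with pairs summed. The summed level was 190.1 to 241, 161 to 218 and 222 to 274 CPM for endothelial cell markers and 18.2 to 40.9, 52.7 to 94.4 and 49.9 to 119 CPM for cholangiocyte markers, in the same order of groups. T and B cell markers summed to at most 9.75 CPM and gave no call. The part of these shifts in cell type markers in the lipogenesis results was not tested.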

How the data were processed

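Liver RNA of 19 mice was sequenced at the 3′ ends of polyadenylated transcripts (QuantSeq, single-end reads of 100 bp). The authors deposited raw counts per Ensembl gene in 1 table, without normalization. The methods name the provider's pipeline with quality filtering, trimming, alignment and counting by gene, and the submitters' processing notes list STAR and mm10. The strand setting, the annotation release and whether molecular identifiers were used are not given in the sources used here, so counts can include PCR duplicates. The table held no other library and no row without a gene. Symbols were matched for 30934 of 31053 genes, and positions are GENCODE positions on GRCm38.

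Each comparison was fitted with edgeR 4.0.16 in R 4.3.3 on its 2 groups alone (TMM normalization, filterByExpr at min.count 10 and min.total.count 15, glmQLFit and glmQLFTest), with Benjamini-Hochberg adjustment over all genes tested. Log2 CPM values used a prior count of 2, and intervals are 95% intervals of the fitted log2 fold change. Single genes were also compared by a two-sided exact permutation test over libraries. The labels give libraries as biological replicates, and p-values set group differences against the spread between these libraries, taken as independent. Whether the libraries of the close pairs are independent of each other was not tested. Fits were tested on simulated data.

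The members and gene lists were chosen with earlier results of these data known. Genes named are all members, up to 3 called genes with the smallest adjusted p per list and comparison, *Mlxipl*, *Nr1h3* and *Insig2*, and the 5 other genes nearest to the members' mean. Promoter, microRNA and 3′ UTR sequences came from RefSeq (GRCm38.p6) and GENCODE, and *Rai1* and *Gm35986* were named for their overlap. Alternatives were other filters and scalings, DESeq2 1.42.0, limma 3.58.1 (voom with sample weights), 1 fit of all 3 groups, a replicate block, the clock score as a covariate, close pairs summed, and each library left out. List counts under alternatives, and those of the named pathway genes, were added after the data were seen. The vector transgenes and the miR-34 genes were not analysed here, and some genes of the lists are not reported here.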

Additional observations from a re-analysis of the deposited data

Results flagged for a closer look

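In 3 of 27 combinations of a member and a group, 1 library stood far from the others by Dixon's criterion, where chance gives about 1 in 20, or 1.35 of 27. *Srebf1* in AAV-miR-34b/c library 6 was at 3.16 log2 CPM, and the next lowest of its group was at 4.84. *Acly* in AAV-GFP library 4 was at 7.45 log2 CPM, above the next highest at 6.85. *Thrsp* in AAV-GFP library 4 was at 5.02 log2 CPM, below the next lowest at 6.95.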

How the results depend on the processing

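For AAV-GFP against vehicle, the 2 called members became 4 without a filter on low counts, with limma-voom and with the replicate block (*Srebf1* and *Thrsp* added), 1 in 1 fit of all 3 groups and with close pairs summed (*Fasn*), and 0 with the clock score. They were 1 to 4 when 1 library was left out: 1 without vehicle library 1 or 2 or AAV-GFP library 3, and 4 without AAV-GFP library 6. Between the vectors the 1 called member became 3 with limma-voom (*Fasn* and *Acaca* added) and 0 with scaling by library size, the replicate block (*Elovl6* adjusted p = 0.0775) or close pairs summed, and was 1 to 2 when 1 library was left out (2 without AAV-miR-34b/c library 1). Against vehicle the 3 members called in AAV-miR-34b/c livers were 2 to 4 under all alternatives. The cause of these changes was not tested, but close pairs summed leaves fewer samples. Settings with 4 called members for AAV-GFP against vehicle also called more genes in all. These totals were 1374 without the filter, 2687 with limma-voom and 3088 with the replicate block, against 1212 in the main fit. Between the vectors limma-voom called 813 genes against 311.

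All genes called for AAV-GFP against vehicle were 1212, and 2687 with limma-voom, 3088 with the replicate block, 238 with the clock score, 227 with close pairs summed and 689 to 1859 with 1 library left out. Between the vectors they were 311, and 624 with scaling by library size, 542 with DESeq2, 813 with limma-voom, 142 with the replicate block and 87 with close pairs summed. For AAV-miR-34b/c against vehicle they were 2037, and 3839 with limma-voom, 922 with the replicate block, 1052 with the clock score, 331 with close pairs summed and 1267 to 2695 with 1 library left out. Same-numbered libraries of different groups did not deviate together (r from -0.284 to 0.277), so the replicate block shares only a number between groups.

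Uncalled log2 fold changes near 0 turned sign. For AAV-GFP against vehicle these were *Scd1* (0.0116 with at least 10 counts in every library, 0.0630 with scaling by library size, 0.21 with limma-voom, 0.32 with the replicate block, -0.19 to 0.16 with 1 library left out), *Acly* (0.0177 with scaling by library size, 0.00990 with limma-voom, -0.18 to 0.0912), *Elovl6* (0.0150 with scaling by library size, 0.21 with the clock score, -0.12 to 0.0705), *Acacb* (0.0829 with the replicate block, 0.20 with the clock score, -0.29 to 0.0248) and *Me1* (-0.0916 with limma-voom, -0.19 with the replicate block, -0.0323 to 0.31). *Acly* turned to -0.0493 with scaling by library size and -0.0802 with limma-voom between the vectors, and to -0.0315, -0.0678 and, with the clock score, -0.0527 for AAV-miR-34b/c against vehicle, where *Acacb* was -0.0467 and the called *Igfbp1* -0.61 with the clock score. Results not listed here kept their direction in the fits run. Of the named pathway genes, these kept their call in only some of the 12 fits with 1 library left out: *Mlx* (6), *Pgd* (5), *Acsl1* (8), *G0s2* (8) and *Usp2* (11) for AAV-GFP against vehicle, and *Cd36* (7), *Igfbp1* (6), *Per3* (8), *Per1* (8) and *Nr1d2* (4) for AAV-miR-34b/c against vehicle, with adjusted p of at most 0.119. With 9 counts in all, *Pnpla3* could not be compared.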
